A study of Mus musculus with 11 samples.

Results

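NRF2, encoded by Nfe2l2, is the transcription factor that drives much of the antioxidant and detoxification response, and its expression and that of 9 genes around it was examined in the aorta of old male mice. The 10 genes were Nfe2l2, its inhibitor Keap1 and the target genes Nqo1, Hmox1, Gclc, Gclm, Srxn1, Txnrd1, Slc7a11 and Gsr, and they were taken by name, with every probe that the array files give them. They had 12 probes of the 55681 on the array that are not controls. Of these, 10 probes were among the 23633 detected, which takes a spot that is found and clearly brighter than background on 5 or more arrays of 1 group, and they covered 9 of the 10 genes.

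The mice were male C57BL/6 mice aged 20 months. Old nitrate treated mice received 1 g/L NaNO3 in the drinking water for 8 weeks. By the study's methods the controls drank sodium chloride at the same concentration, but the sample labels name no such salt and describe their arrays as earlier samples analysed again. Total RNA of the whole descending aorta, flushed and cleaned of surrounding fat, was hybridized with 1 array per mouse, and arrays of 5 nitrate treated and 6 control mice were analysed. The study states 6 mice per group, so that 1 nitrate treated mouse was not analysed here. The study asked which aortic genes differ after nitrate in old mice, with detoxification and antioxidant genes among its themes.

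In resting cells KEAP1 holds NRF2 in the cytoplasm and feeds it to a ubiquitin ligase, so that NRF2 protein is short-lived. Oxidants and electrophiles modify cysteines of KEAP1, NRF2 then builds up, enters the nucleus and, with a small MAF protein, binds antioxidant response elements near its target genes. Because this control acts on the protein, the amount of Nfe2l2 mRNA is only one part of the activity of the pathway. In vessels the targets are known for glutathione synthesis, heme breakdown and the reduction of quinones and peroxides.

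The core of the antioxidant response element, TGACNNNGC, was searched on both strands of RefSeq promoter windows of GRCm38.p6, each of 300 bases with 250 before and 50 after a start site. The matches are shown because NRF2 acts through this element, which can also lie far outside such windows. 7 of the 10 genes had a window, and they had 9 windows in all, 3 of them for Txnrd1. Hmox1, Gclc and Gsr had none in the table. The core was in 4 of the 9 windows, against 12.4% of all 32851 windows. The matches, read 5′ to 3′ on the strand of the gene with the core in capitals, lay at chr2:75704885-75704913 on the minus strand for Nfe2l2, at chr3:122245413-122245441 on the plus strand for Gclm, at chr10:82859104-82859132 on the plus strand for Txnrd1 and at chr2:152105542-152105570 on the plus strand for Srxn1.
Nfe2l2: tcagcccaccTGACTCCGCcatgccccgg
Gclm: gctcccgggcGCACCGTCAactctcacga
Txnrd1: ctggatttttGCTTTGTCAttctgacacg
Srxn1: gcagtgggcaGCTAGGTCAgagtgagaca
In Nfe2l2 the core read forward and began at base -240 from the start site. In the other genes its reverse complement, GCNNNGTCA, was on the gene's strand, beginning at base -134 in Gclm, at -92 in 1 of the 3 Txnrd1 windows and at 29, after the start, in Srxn1. The windows of Nqo1, Keap1 and Slc7a11 did not hold these letters. A match describes the letters of the window and says nothing of binding in these aortas.

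Nfe2l2, Hmox1 and Nqo1 were higher in old nitrate treated mice by the limits of the study, an unadjusted P value under 0.05 with a fold change above 1.2. Nfe2l2 was 1.22-fold, Hmox1 1.23-fold and Nqo1 1.22-fold higher. Gclc, Keap1, Gclm, Srxn1, Txnrd1 and Gsr did not pass these limits, and Slc7a11 was not detected. Thus 3 of the 9 detected genes passed, all of them higher, where 9.00% of all detected probes passed in either direction and 4.16% passed as higher. None of the 9 passed after Benjamini-Hochberg adjustment over all detected probes in limma, which 0.0127% of all detected probes passed. Without the fold limit, the same 3 of 9 had an unadjusted P value under 0.05, as had 14.4% of all detected probes, 7.71% as higher. In no member did the groups separate fully, as they did in 2.75% of all detected probes and, with nitrate higher, in 1.61%. The difference was above 0 in 6 of the 9 genes and below 0 in 3, with a median of 0.10 on the log2 scale, beside a median of 0.01 over all detected probes, of which 53.8% were higher. With single mice left out the median of the 9 genes ranged from 0.05, without control 6, to 0.15, without control 3. Control 1 gave the array least like the rest (mean correlation 0.985), and without it 1 of the 9 genes passed, Hmox1. The same count was found without nitrate treated mouse 4 or control 2.

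**Figure D1:**
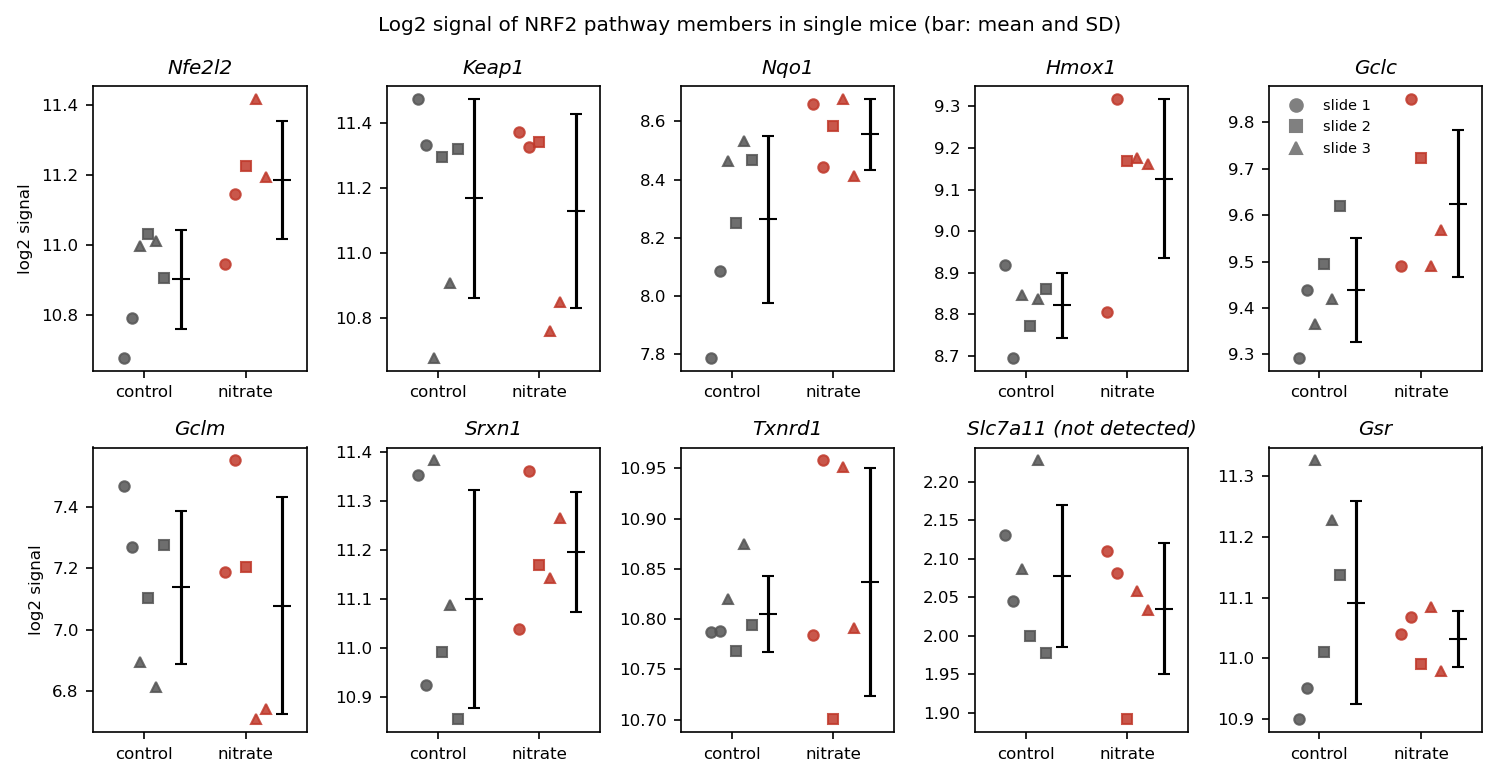
Log2 signal of the 10 genes (vertical axes, quantile normalized, own scale per panel) in single control (gray) and nitrate treated (red) mice, by the detected probe with the highest signal. Marker shape gives the slide, and bars give mean and SD. In Nfe2l2 and in Hmox1, 4 of the 5 nitrate treated mice lie above all 6 controls. In Keap1 and Gclm the 4 arrays of slide 3 lie below all others in both groups. Slc7a11 was not well above background on any array.

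For Nfe2l2, the factor itself, the normalized log2 signals of nitrate treated mice 1 to 5 were 10.95, 11.15, 11.22, 11.42 and 11.19. The controls ranged from 10.68 to 11.03 around a median of 10.95. 4 of the 5 nitrate treated mice were above all 6 controls, and mouse 1 was within the range of the controls. The means were 11.19 ± 0.17 (SD, n = 5) and 10.90 ± 0.14 (SD, n = 6), a log2 difference of 0.28 with a 95% confidence interval of 0.08 to 0.49 (limma P value 0.0112, adjusted 0.245). An exact two-sided permutation test over the 462 divisions of the mice gave 0.0152, where the smallest value possible is 0.00216. Leaving out single mice kept the P value between 0.00323 and 0.0328, but the fold change fell below 1.2 without nitrate treated mouse 4, control 1 or control 2, at differences of 0.22, 0.24 and 0.26. The probe lies in mm9 at chromosome 2, bases 75513771 to 75513830, on the minus strand.

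Keap1, the adaptor that presents NRF2 for degradation, did not pass the test. Its signals in the nitrate treated mice were 11.37, 11.33, 11.34, 10.76 and 10.85, and those of the controls ran from 10.68 to 11.47 around a median of 11.31. The values fell into a high and a low cluster, and both clusters held mice of each group. The log2 difference was -0.04 with an interval of -0.40 to 0.32 (limma P value 0.820). The probe is split in mm9 between bases 21035292 and 21035732 of chromosome 9, minus strand.

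Hmox1, which encodes the inducible heme oxygenase that breaks heme into biliverdin, iron and carbon monoxide, had the smallest P value of the 10 genes. Its signals were 8.80, 9.32, 9.17, 9.18 and 9.16 in the nitrate treated mice and lay between 8.70 and 8.92, with a median of 8.84, in the controls. Mouse 1 was again the exception, as the other 4 nitrate treated mice were above all 6 controls. The means were 9.13 ± 0.19 (SD, n = 5) and 8.82 ± 0.08 (SD, n = 6), a log2 difference of 0.30 with an interval of 0.11 to 0.50 (limma P value 0.00476, adjusted 0.196, exact permutation 0.0152). Without nitrate treated mouse 2 the difference was 0.26, which is below the fold limit, with a limma P value of 0.0152, and without mouse 1 it was 0.38.

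This Hmox1 probe lies in mm9 at chromosome 8, bases 77624207 to 77624266, plus strand. A second Hmox1 probe at bases 77620797 to 77620856 showed no such difference, at 0.05 with an interval of -0.18 to 0.29 (limma P value 0.615). The second probe was bright enough on all 11 arrays, but its spot was called found on only 2 nitrate and 3 control arrays, so it did not count as detected. The call for Hmox1 therefore rests on 1 of its 2 probes.

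Nqo1, a quinone reductase used as a standard readout of NRF2, had signals of 8.66, 8.44, 8.59, 8.68 and 8.41 in the nitrate treated mice. The controls were more spread, between 7.79 and 8.53 with a median of 8.36. All 5 nitrate treated mice were above the median of the controls, but only 3 were above every control. The means were 8.56 ± 0.12 (SD, n = 5) and 8.26 ± 0.29 (SD, n = 6), a log2 difference of 0.29 with an interval of 0.01 to 0.58 (limma P value 0.0448, adjusted 0.338). The exact permutation test gave 0.0563. Controls 1 and 2, both on slide 1, had the lowest signals, and the difference was 0.20 without control 1. The limma P value was above 0.05, at up to 0.0941, without nitrate treated mouse 1, 3 or 4 or without control 1, 2 or 4. The probe lies in mm9 at chromosome 8, bases 109912440 to 109912499, minus strand.

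The genes of glutathione supply did not pass the limits. Gclc, the catalytic subunit of the enzyme that makes the first step of glutathione synthesis, came closest, with signals of 9.49, 9.85, 9.72, 9.49 and 9.57 against 9.29 to 9.62 in the controls. 2 of the nitrate treated mice were above all controls, and the log2 difference was 0.19 with an interval of -0.000815 to 0.37 (limma P value 0.0509, exact permutation 0.0519). Its P value crossed 0.05 in several alternatives, such as slide as a block (difference 0.21, limma P value 0.0251) and scaling to the 75th percentile (difference 0.20, limma P value 0.0337), and ranged from 0.0247 to 0.144 with single mice left out, while its fold change stayed below 1.2 in all of these. Gclm, the modifier subunit of the same enzyme, had a difference of -0.06 with an interval of -0.42 to 0.30 (limma P value 0.724). Its signals were 7.19, 7.55, 7.20, 6.71 and 6.74 against 6.82 to 7.47 in the controls, so the groups overlapped over nearly the whole range. Slc7a11, the transporter that brings in cystine, was not well above background on any array, and no level is given for its probe at chromosome 3, bases 50169700 to 50169759, minus strand. The Gclc probe lies in mm9 at chromosome 9, bases 77641296 to 77641355, plus strand, and the split Gclm probe at chromosome 3 between 121962174 and 121964809, plus strand.

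The genes that reduce oxidized glutathione, thioredoxin and peroxiredoxin also stayed within the spread of the mice. Gsr, glutathione reductase, had a log2 difference of -0.06 (interval -0.24 to 0.12, limma P value 0.484) by its brighter probe and the same difference of -0.06 (limma P value 0.392) by its other probe. These probes lie side by side in mm9 on the plus strand of chromosome 8, at bases 34808488 to 34808547 and 34808413 to 34808472. Its signals ran from 10.98 to 11.08 in the nitrate treated mice and from 10.90 to 11.33 in the controls. Txnrd1, the cytosolic thioredoxin reductase, differed by 0.03 with the narrowest interval of the detected genes, -0.11 to 0.17 (limma P value 0.632), and of the 5 nitrate treated mice 2 were above and 1 was below the controls, which ran from 10.77 to 10.87. Srxn1, which restores overoxidized peroxiredoxins, differed by 0.10 with an interval of -0.14 to 0.33 (limma P value 0.392), with signals from 11.04 to 11.36 after nitrate and from 10.86 to 11.38 in controls. In mm9 the Txnrd1 probe lies at chromosome 10, bases 82360230 to 82360289, and the Srxn1 probe at chromosome 2, bases 151937009 to 151937068, both on the plus strand.

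**Figure D2:**
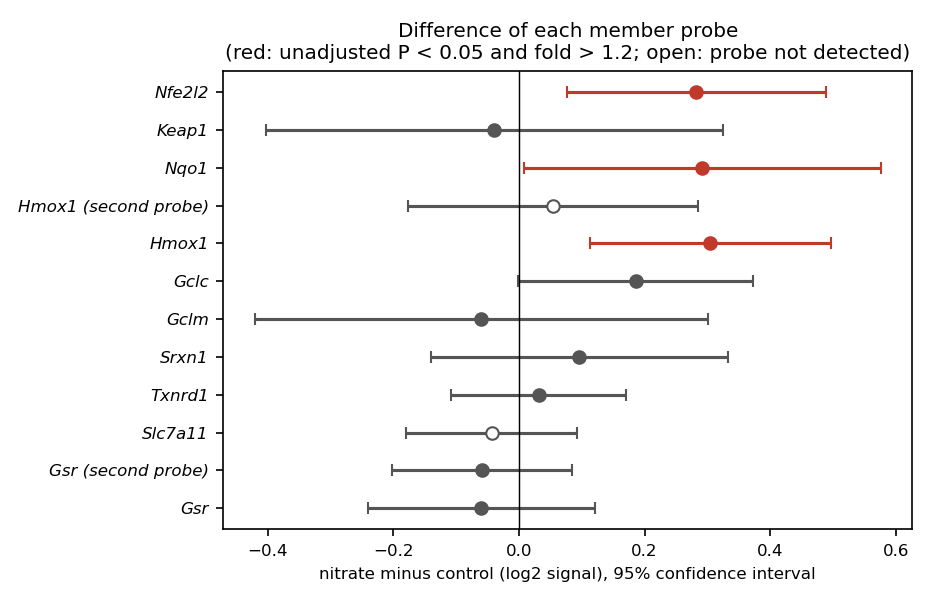
Difference between old nitrate treated and control mice in log2 signal (horizontal axis) for the 12 probes of the 10 genes, with 95% confidence intervals from limma. Red marks the probes that passed the limits on P value and fold change, and open circles mark probes that were not detected. The intervals of Nfe2l2, Hmox1 and Nqo1 lie above 0, and those of Keap1 and Gclm are the widest.

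The arrays lay on 3 slides, each with both groups, and slide 3 was scanned on another day than slides 1 and 2. Slide 3 held nitrate treated mice 4 and 5 and controls 3 and 5. Within slides 1, 2 and 3 in turn, Nfe2l2 was higher after nitrate by 0.31, 0.26 and 0.30 on the log2 scale and Hmox1 by 0.25, 0.35 and 0.33. These values lay close together for each gene, but they rest on few mice. Slide 2 held only mouse 3 of the nitrate group. On slide 1 the Hmox1 signal was 8.80 in nitrate treated mouse 1 and 9.32 in mouse 2. For Nqo1 the differences within slides 1, 2 and 3 were 0.62, 0.23 and 0.05, so it was largest on slide 1 and smallest on slide 3, and for Gclc they were 0.30, 0.17 and 0.14. Srxn1, Txnrd1, Gsr, Keap1 and Gclm changed sign between slides. All 6 controls lay in 1 column of the slides that held no nitrate array, so column and treatment cannot be told apart.

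**Figure D3:**
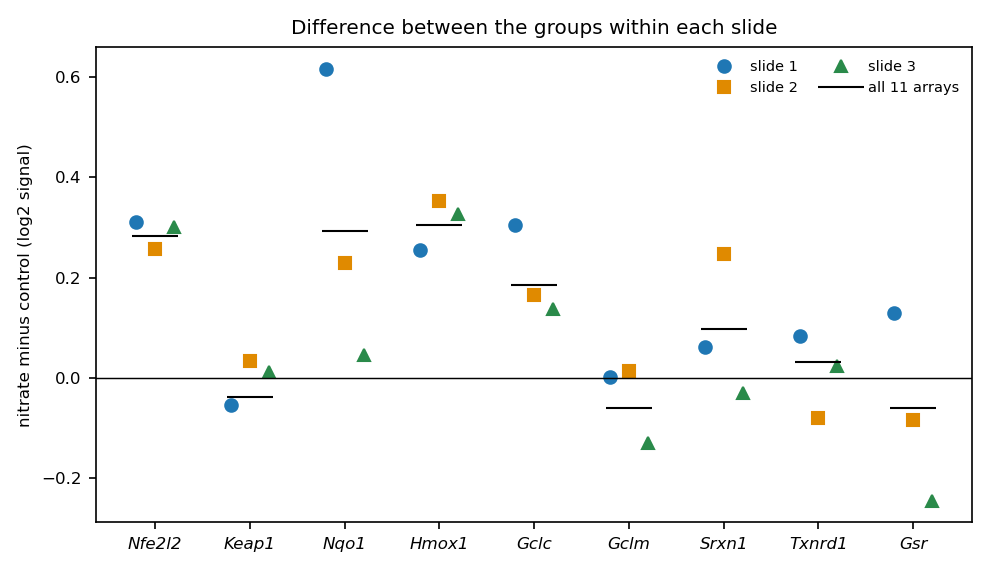
Difference in mean log2 signal between nitrate treated and control mice (vertical axis) within slides 1, 2 and 3 and over all 11 arrays (line) for the 9 detected genes. Nfe2l2 and Hmox1 lie between 0.25 and 0.35 on every slide, Nqo1 runs from 0.62 on slide 1 to 0.05 on slide 3, and Gsr runs from 0.13 to -0.25. Slide 2 holds only mouse 3 of the nitrate group.

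Keap1 and Gclm differed between slides. On slide 3 Keap1 had log2 signals of 10.68 to 10.91, against 11.30 to 11.47 on the other slides. The difference was -0.55 ± 0.06 (SE) with a limma adjusted P value of 0.00105. For Gclm the ranges were 6.71 to 6.90 and 7.10 to 7.55, a difference of -0.50 ± 0.09 (SE) with a limma adjusted P value of 0.0136. In both genes the 4 arrays of slide 3 did not overlap the other 7, and how many of all detected probes separate in this way was not counted. Over all detected probes 5.56% differed between slide 3 and the others at this level. The other 7 detected members did not, at adjusted P values of 0.249 and above. With slide as a block, Keap1 differed after nitrate by -0.00808 ± 0.06 (SE, limma P value 0.900). Gclm differed by -0.05 ± 0.08 (SE, limma P value 0.589).

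How the genes varied together between mice was examined in deviations from the group means, over 11 arrays and the 36 pairs of detected members. The permutations treated these deviations as free values, although means had been removed from them. The permutation p values of the pairs can therefore be too small, most so with slide means also removed. Nqo1 and Gsr varied together, with Pearson's r of 0.83 (permutation p 0.00147, adjusted 0.0265) and Spearman's rho of 0.88 (permutation p 0.000730, adjusted 0.0263). Without the 2 arrays farthest from the median of Nqo1, r was 0.73, and with slide means also removed, a setting chosen after seeing the data, it was 0.83. Within slides 1 and 2 alone, over 7 arrays, r was 0.82 (exact permutation p 0.0325, adjusted 0.280), but it was -0.00473 without the 2 farthest arrays, so there it rested on those arrays. With scaling to the 75th percentile in place of quantile normalization, r was 0.71 with an adjusted p of 0.125. Keap1 and Gclm fell into clusters by slide, so their pairs are given within slides 1 and 2 or with slide means also removed. Keap1 with Gclm had an r of 0.46 over the 7 arrays of slides 1 and 2 and a rho of 0.29 (exact permutation p 0.309 and 0.556). Hmox1 with Gclm had an r of 0.68 and a rho of 0.75 there (exact permutation p 0.0903 and 0.0663, adjusted 0.330 and 0.462). With group and slide means removed over all 11 arrays, r of Hmox1 with Gclm was 0.87 (permutation p 0.000420, adjusted 0.0151) and rho 0.80 (permutation p 0.00468, adjusted 0.0842), the highest r of the 36 pairs in that setting. With the slide clusters left in, r of this pair was 0.11 (permutation p 0.767), so it rests on the setting chosen after seeing the data. In the same setting r of Keap1 with Gclm was -0.04 (permutation p 0.917). Nfe2l2 and its inhibitor Keap1 had an r of -0.79 and a rho of -0.75 over the 7 arrays (exact permutation p 0.0151 and 0.0663, adjusted 0.271 and 0.462), with r of -0.42 without the 2 farthest arrays, and an r of -0.45 over all 11 with slide means removed (permutation p 0.164, adjusted 0.454). Nqo1 and Srxn1 had the r furthest from 0 over the 7 arrays, at -0.88 with a rho of -0.82 (exact permutation p 0.00456 and 0.0341, adjusted 0.164 and 0.462), and an r of -0.36 over all 11 in deviations from the group means (permutation p 0.280, adjusted 0.531). Over the 11 arrays, Nfe2l2 had an r of 0.57 and a rho of 0.49 with Nqo1 (permutation p 0.0656 and 0.129, adjusted 0.346 and 0.528). With Hmox1 its r was 0.38 and its rho 0.06 (permutation p 0.258 and 0.861, adjusted 0.531 and 0.934). Without the 2 arrays farthest from the median of Nfe2l2 these r were 0.59 and 0.09, so the second rested on those arrays. With slide means also removed they were 0.13 with Nqo1 (permutation p 0.705, adjusted 0.917) and 0.33 with Hmox1 (permutation p 0.345, adjusted 0.621), so the first did not hold within slides. Nfe2l2 with Txnrd1 had the highest r of its pairs in that setting, at 0.76 with a rho of 0.76 (permutation p 0.00807 and 0.00889, adjusted 0.0968 and 0.0919), but 0.49 without the 2 farthest arrays, 0.35 with group means alone removed and -0.10 over the 7 arrays.

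The transcripts whose log2 signal followed that of Nfe2l2 most closely over the 11 arrays, group differences included, were Crlf3, Sned1 and Icosl, with Pearson's r of 0.96, 0.95 and 0.94. Among 18283 detected gene names Nqo1 came at rank 823 with r of 0.74 and Hmox1 at rank 1009 with r of 0.72. Gclc was at rank 3334, Txnrd1 at 5058, Gsr at 7774 and Srxn1 at 7798. Keap1 and Gclm were at 16702 and 16793, with r of -0.53 and -0.55. These values share treatment, slide and array and are given as a description.

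Beside the 10 genes, 74 further genes known as regulators or targets of NRF2 or as part of the same chemistry were examined, of which 66 were detected. By the limits above 9 of the 66 passed, 3 of them higher and 6 lower in nitrate treated mice, where 4.16% and 4.85% of all detected probes did. None passed after adjustment over all detected probes in limma, where 10 had an unadjusted P value under 0.05. The median log2 difference of the 66 was -0.04.

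None of the 11 detected regulators passed, and the smallest P values were those of Bach2, a repressor that competes at the same elements, at -0.36 (limma P value 0.109), and Btrc, a ubiquitin ligase adaptor that also recognizes NRF2, at 0.15 (limma P value 0.138). None of the 7 detected glutathione genes passed either, with Glrx3 at -0.15 (limma P value 0.104) and Glrx5 at -0.20 (limma P value 0.119), both glutaredoxins of iron-sulfur handling. The same held for the 7 thioredoxin genes, with Txnip, a thioredoxin inhibitor, at -0.18 (limma P value 0.193) and Txn2, mitochondrial thioredoxin, at -0.11 (limma P value 0.231). The median difference of these lists was 0.00, -0.04 and -0.04.

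Osgin1, an oxidative stress response gene, rose from 7.87 ± 0.08 (SD, n = 6) to 8.24 ± 0.19 (SD, n = 5), by 0.37 on the log2 scale or 1.30-fold, with no overlap between the groups (limma P value 0.00101, adjusted 0.138, exact permutation 0.00216, the smallest possible). In the same list of 10 other NRF2 targets, Nadk, which makes NADP+ from NAD+, fell by 0.34 (limma P value 0.00854) by its brighter probe, while its second probe, at -0.13 (limma P value 0.244), did not pass. Lpcat3, a phospholipid acyltransferase, fell by 0.46 (limma P value 0.0457). The median of that list was 0.00. Among 8 detected genes of heme and iron only Slc48a1, a heme transporter, passed, rising by 0.29 (limma P value 0.0134, adjusted 0.258), and the median was -0.07. It did not pass without nitrate treated mouse 2, control 1 or control 3, which left 0 of the list. With single mice left out, 1 to 3 of the other targets passed as lower, while 1 passed as higher each time.

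Of 15 detected genes of quinone reduction, phase II metabolism and export, 1 rose and 2 fell. Ephx1, microsomal epoxide hydrolase, rose from 13.85 ± 0.22 (SD, n = 6) to 14.26 ± 0.10 (SD, n = 5) without overlap, by 0.41 on the log2 scale (limma P value 0.00217, adjusted 0.162, exact permutation 0.00433), and its second probe gave 0.33 (limma P value 0.0117). Gsta4, a glutathione transferase for lipid aldehydes, fell by 0.58 (limma P value 0.00665), and Mgst1, a membrane-bound glutathione transferase, fell by 0.36 (limma P value 0.0340) and by 0.40 (limma P value 0.0262) with its second probe. Abcc1, which exports glutathione conjugates, had groups that did not overlap, but its difference of 0.22 was below the fold limit (limma P value 0.00870). The study singled out these 4 genes on the same mice, so they are no independent sign of the direction of the list. With single mice left out, 1 or 2 genes of the list passed as lower.

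The 8 genes that supply NADPH, on which NQO1, glutathione reductase and thioredoxin reductase depend, were all detected and all had differences below 0, with a median of -0.34. Tkt, transketolase of the pentose phosphate pathway, fell by 0.53 (limma P value 0.0282), and Pgls, 6-phosphogluconolactonase, fell by 0.31 (limma P value 0.0447). The others did not pass by their brightest probe, among them Me1, malic enzyme, at -0.74 (limma P value 0.0597), although 2 further Me1 probes had limma P values of 0.0459 and 0.0323. The count of 2 depended on single mice, between 0 and 5 when each was left out. With scaling to the 75th percentile, 3 of the 66 genes passed as lower in place of 6.

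**Figure D4:**
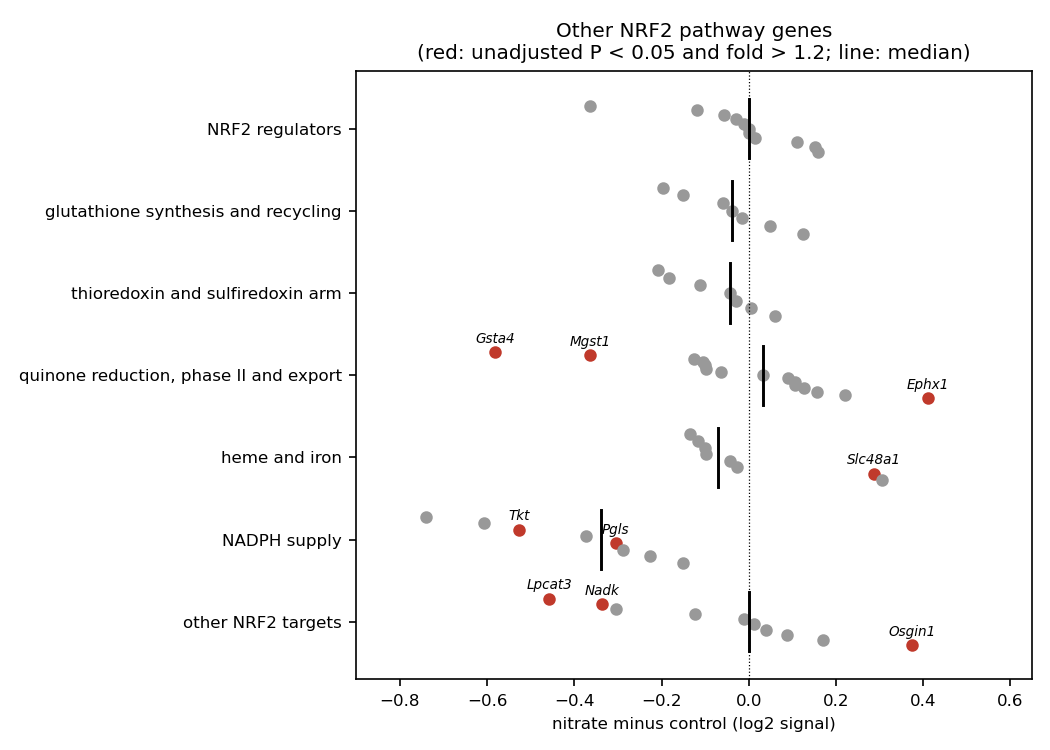
Log2 difference between old nitrate treated and control mice (horizontal axis) for the 66 detected NRF2 pathway genes outside the 10 members, 1 point per gene in 7 lists (vertical axis). Red marks an unadjusted P value under 0.05 with a fold change above 1.2, and black lines are the median of each list. All 8 genes of NADPH supply lie below 0, with a median of -0.34, while the medians of the regulators and of the other targets lie at 0.00.

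Marker genes of the cell types in the tissue were measured beside these results. All 7 smooth muscle markers were above background on every array, as were all 8 endothelial markers, and no endothelial marker passed. Of the smooth muscle markers 1 was higher after nitrate, and all 7 had differences above 0, with a median of 0.15 on the log2 scale and summed linear signals of 673564 to 706451 after nitrate and 537099 to 703081 in controls. All 6 fibroblast markers also had differences above 0, with a median of 0.13 and sums of 144510 to 184126 and 130784 to 165669, and none passed. Both lists moved the same way as Nfe2l2, Hmox1 and Nqo1, and their part in those differences was not tested. Of 12 adipocyte markers, 6 were lower after nitrate and none higher, and their summed linear signal lay between 351628 and 475075 in nitrate treated mice and between 465760 and 607675 in controls. All 12 were above background on every array. This moved with the lower NADPH supply genes and with Gsta4, Mgst1, Nadk and Lpcat3, and its part in those differences was not tested. Of 6 brown adipocyte markers 1 was lower, and control 1, which had the lowest Nfe2l2 and Nqo1 signals, had the highest sum, at 302577 against 104328 to 255473 in nitrate treated mice and 173657 to 201503 in the other controls. No macrophage marker of 12 passed, but 10 had differences above 0, with a median of 0.09. Their sums were 9727 to 17063 after nitrate (median 15710.5) and 11911 to 15424 in controls (median 12649.7). The lowest sum was that of nitrate treated mouse 1, which also had the lowest Hmox1 signal of its group, and the part of these markers in Hmox1 was not tested. Heart muscle markers varied over a wide range, with summed signals of 2255 to 46084 after nitrate and 1651 to 29221 in controls, and none passed. Of the 6 detected, 5 had differences above 0, with a median of 0.67. The highest sums were those of nitrate treated mouse 4, where the rest of its group reached 8762, and of control 1, where the rest reached 3785. Mouse 4 had the highest Nfe2l2 and Nqo1 signals and control 1 the lowest, and control 1 also had the lowest smooth muscle sum, at 537099 where all other mice had 647771 or more. Their part in the calls for Nfe2l2 and Nqo1, which each ended without either mouse, was not tested. None of the 4 detected erythroid markers passed, and the median difference was -0.45, with 1 of them above 0, and their sums were 17116 to 43793 after nitrate and 21765 to 59095 in controls. Their part in the results for heme genes was not tested. In RNA of a whole vessel, fewer cells of a type and less RNA per cell cannot be told apart.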

How the data were processed

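The authors deposited background-subtracted spot intensities and quality flags of 11 one-color Agilent arrays, written by Feature Extraction 10.7.1.1 per the file headers, and a table of log2 values, which they quantile normalized and centred on the median of all arrays in GeneSpring. Here processed signals below 1 were set to 1 before taking log2. Spots flagged as outliers and control spots were dropped, repeated spots were averaged per probe, and the 11 arrays were quantile normalized together. A detected probe was found and well above background on 5 or more arrays of a group. Groups were compared with limma 3.58.1 (lmFit, eBayes) in R 4.3.3 over all detected probes, with Benjamini-Hochberg adjustment. Of several detected probes of a gene, the brightest on average stood for it. Spread between arrays, 1 per mouse, sets the error, and the number of arrays limits the precision. Correlations used 1e+05 permutations, or all permutations for 7 arrays. These took no account of the means removed beforehand, so their p values can be too small. Probe positions in mm9 were copied from the files. Named were all members, every other pathway gene with an unadjusted P value under 0.05 or the 2 smallest of a list without one, and the 3 transcripts closest to Nfe2l2. Further genes of NADPH supply and the second probes were named after their values were seen. Members and lists were chosen with earlier results of these data known. Fits were tested on simulated data. Alternatives covered normalization, background correction, offset, the log2 table, detection, flagged spots, prior variance, slide, replicate number, probe choice, fold limit and each array left out. Removing slide means from pair correlations, and slides 1 and 2 alone, were chosen after seeing the data.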

Additional observations from a re-analysis of the deposited data

How the results depend on the processing

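Of 24 alternatives with a test, Hmox1 passed in all except without nitrate treated mouse 2, and Nfe2l2 in all but 4. With no normalization between arrays, 1 of the 9 genes passed in place of 3, Nfe2l2 differed by 0.33 (limma P value 0.0592), Nqo1 by 0.34 (limma P value 0.0757) and Keap1 by 0.0124. With single mice left out, 1 to 3 genes passed, and the differences ranged from 0.22 to 0.34 for Nfe2l2, 0.26 to 0.38 for Hmox1, 0.20 to 0.35 for Nqo1, -0.14 to 0.0538 for Keap1, -0.18 to 0.0328 for Gclm, 0.0474 to 0.15 for Srxn1, -0.0984 to -0.0130 for Gsr and 0.00132 to 0.0657 for Txnrd1. Nqo1 was at 0.29 with no detection filter (limma P value 0.0541) and in the exact permutation test (0.0563), and at 0.62 within slide 1 and 0.0457 within slide 3. Of the 66 other pathway genes 6 were lower, against 3 with scaling to the 75th percentile, 3 with no normalization, 10 with the replicate number as a block, and 3 to 9 with single mice left out. Pairs of members whose adjusted p for Pearson's r passed numbered 2, Nqo1 with Gsr and Keap1 with Gclm, the latter separated by slide and not passing by Spearman's rho (adjusted permutation p 0.103). With the 75th percentile 1 pair passed by r, Keap1 with Gclm, and another by rho, Nfe2l2 with Keap1 (rho -0.89, adjusted permutation p 0.0191), and within slides 1 and 2 alone, chosen after seeing the data, 0 passed by r, with 4 at an unadjusted permutation p under 0.05. Where a fold limit or fewer mice do not show it, the cause of these changes was not tested.

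For mice of the same number the correlations of their deviations were 0.01, 0.12, -0.14, -0.13 and 0.18. Those numbered 1, 2 and 5 also shared a slide, so the replicate number is in part a slide. With the replicate number as a block over replicates 1 to 5, Nqo1 differed by 0.33 (limma P value 0.0515), and no other member changed its call. Over all detected probes 2128 passed, 46.1% of them higher. With normexp background correction 1218 passed and 35.8% were higher, with no normalization 1519 and 65.3%, and with no detection filter 3224 of 55681 passed. Values within slides have no test.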
